A study of Mus musculus with 6 samples.

Results

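The circadian clock and PAR bZIP output genes were examined as a set of 10 named genes, out of 25006 genes in a table of read counts from mouse corneal epithelium. They are Dbp and Tef, Nr1d1 and Nr1d2, Per1, Per2 and Per3, Arntl and Npas2, and Ciart, taken by matching each Ensembl mouse gene number to its symbol, and all 10 were found once in the table. Total RNA of corneal epithelial sheets, the layered cell sheet at the front of the eye, had been sequenced from 3 libraries labelled wild type and 3 labelled EphA2 null (EphA2-/- in the series text), on an Illumina HiSeq instrument. EphA2 is a receptor for membrane-bound ephrin-A ligands. The null label, shortened to null-labelled below, is the only allele or treatment given. Neither strain, age, sex, the hour at which tissue was taken nor the light schedule is given in the sources used here, and the labels do not say whether each library is a separate animal. Every p-value therefore rests on the spread between these libraries, which may be technical.

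The circadian clock is a feedback loop of transcription. The activators ARNTL (BMAL1) and its partners CLOCK or NPAS2 bind E-box sequences and switch on the Per, Cry, Nr1d and Ciart genes, whose products then hold the activators back: PER and CRY proteins and CHRONO (the product of Ciart) repress the activators at E-boxes, while the nuclear receptors REV-ERB alpha and beta (Nr1d1 and Nr1d2) repress Arntl and Npas2. DBP and TEF, of the PAR bZIP family, are outputs of the loop that bind D-box sequences. In many tissues the E-box-driven genes and Arntl therefore peak at different hours, and the corneal epithelium is known for daily rhythms in cell division.

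The regulatory letters named in this loop can be read in the promoters of some of these genes, which are shown. Their part in the differences below was not tested. RefSeq (GRCm38.p6) gave windows for 9 of the 10 genes, 12 windows in all, with none for Per2. The 250 bases upstream of each annotated start were searched on both strands for the E-box CACGTG, the D-box as TTATGTAA or TTACGTAA, the ROR element bound by REV-ERB as AGTNGGTCA, and the cyclic AMP response element TGACGTCA. An E-box stood in windows of 3 genes, Ciart, Per1 and Tef, and a D-box in 1, Per3, and the other motifs in none. Among 32851 windows of that length over all genes, 6.02% held the E-box, 0.819% TTATGTAA, 0.113% TTACGTAA, 0.527% the ROR element and 1.55% the cyclic AMP response element. The capitals mark the motif.
Ciart (chr3:95882229-95882478, minus strand): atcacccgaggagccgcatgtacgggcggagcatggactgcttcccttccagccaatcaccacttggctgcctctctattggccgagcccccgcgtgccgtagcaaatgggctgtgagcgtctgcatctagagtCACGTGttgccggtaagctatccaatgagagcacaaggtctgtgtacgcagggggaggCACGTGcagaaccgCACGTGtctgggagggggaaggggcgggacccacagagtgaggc
Per3 (chr4:151044666-151044915, minus strand): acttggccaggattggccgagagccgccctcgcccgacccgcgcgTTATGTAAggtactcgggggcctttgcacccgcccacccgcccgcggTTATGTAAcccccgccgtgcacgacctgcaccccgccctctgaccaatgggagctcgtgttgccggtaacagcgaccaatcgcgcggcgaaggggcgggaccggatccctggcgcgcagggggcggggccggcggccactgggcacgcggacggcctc
Per1 (chr11:69098699-69098948, plus strand): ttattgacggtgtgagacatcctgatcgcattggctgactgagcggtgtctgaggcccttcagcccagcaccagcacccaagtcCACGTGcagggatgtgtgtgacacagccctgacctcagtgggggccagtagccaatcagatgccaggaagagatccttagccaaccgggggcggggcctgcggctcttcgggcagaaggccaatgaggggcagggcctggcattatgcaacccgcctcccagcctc
Tef (chr15:81811164-81811413, plus strand): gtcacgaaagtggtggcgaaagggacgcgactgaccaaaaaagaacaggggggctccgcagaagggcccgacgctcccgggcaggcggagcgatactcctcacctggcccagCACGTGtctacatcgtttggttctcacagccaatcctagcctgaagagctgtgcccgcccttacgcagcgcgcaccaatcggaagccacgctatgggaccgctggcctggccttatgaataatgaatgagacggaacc
In the Ciart window 3 E-boxes lay with their first base 116, 58 and 44 bases upstream of the start, and in the Per3 window 2 copies of TTATGTAA lay 205 and 158 bases upstream. Per1 had 1 E-box 166 bases upstream of its first RefSeq start, and each of the 2 Tef starts had 1, at 127 and 138 bases, of which the second is shown. By GENCODE M21, 23 bases of the Ciart window fall in an exon of Ciart, the Per3 window holds no exon but lies within transcripts of Camta1, the Per1 window is intronic in longer Per1 transcripts apart from 1 base, and the Tef window shown is intronic in Tef. A match is a string of letters, not a measured binding site. A gene without a match may still hold a variant of a motif, or a motif outside these 250 bases. Neither was searched for.

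The titles of the samples carry a number whose meaning the labels do not state. It falls in a lower range in wild type 1, wild type 2 and null-labelled library 1, and in a higher range in wild type 3 and null-labelled libraries 2 and 3, so each range holds both genotypes. Wild type 1 and 2 share 1 number and null-labelled libraries 2 and 3 share another, so the 3 libraries of a range carry 2 numbers, and whether libraries that share one are independent is not stated. The first principal component of all tested genes (61.2% of the variance) divided the libraries in the same way. Library totals ran from 15308013 to 27586942 counts. Levels below are CPM, the count of a gene scaled to the library total with TMM factors. Epha2 itself does not show the null label in these counts, at 253 to 563 CPM in wild type and 285 to 653 CPM in the null-labelled libraries, so the genotype is given as a label throughout. Differences are log2 fold changes from edgeR's quasi-likelihood test. Calls required a Benjamini-Hochberg adjusted p below 0.05 over 12847 tested genes, among them all 10 clock genes. The title number contrast has genotype as a term in the model.

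Between the title number ranges, 6 of the 10 genes were called, all higher in the libraries with higher numbers: Dbp, Tef, Nr1d1, Per2, Per3 and Npas2. All 10 had a log2 fold change above 0, with a median of 0.74, against a median of -0.01 over all tested genes, of which 49.4% were above 0. The genes and the contrast were chosen with earlier results of these data known, so this comparison is a description only. The background of this contrast is large: 44.7% of tested genes were called in either direction, 24.6% higher and 20.1% lower. DESeq2 called 7 of the 10 and 42.6% of tested genes, and limma voom 6 of the 10 and 44.3%. Without the genotype term edgeR called 7 of the 10 and 47.4% of tested genes, 25.7% higher. With upper quartile factors all 10 stayed above 0 and 5 were called, where 2480 of all tested genes were called higher and 3797 lower. Over all genes the edgeR count was 5740, and it was 1103 without null-labelled library 1, 3549 without wild type 2 and 3702 without wild type 3. For 6 of the 10 the lowest higher-numbered library lay above the highest lower-numbered one, which held for 30.1% of all tested genes. Within wild type alone, wild type 3 exceeded the mean of wild type 1 and 2 in all 10 genes, by 2.09 on the log2 CPM scale in Dbp, and within the null-labelled libraries the higher numbers exceeded the lower in 9, by 0.84 in Dbp, with Per1 at -0.13. Between the genotypes, 0 of the 10 were called by edgeR, where 1 of 12847 genes (0.00778%) was, and 5 lay above and 5 below 0. In whole tissue, a change in the share of a cell type and a change of RNA per cell cannot be told apart.

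**Figure D1:**
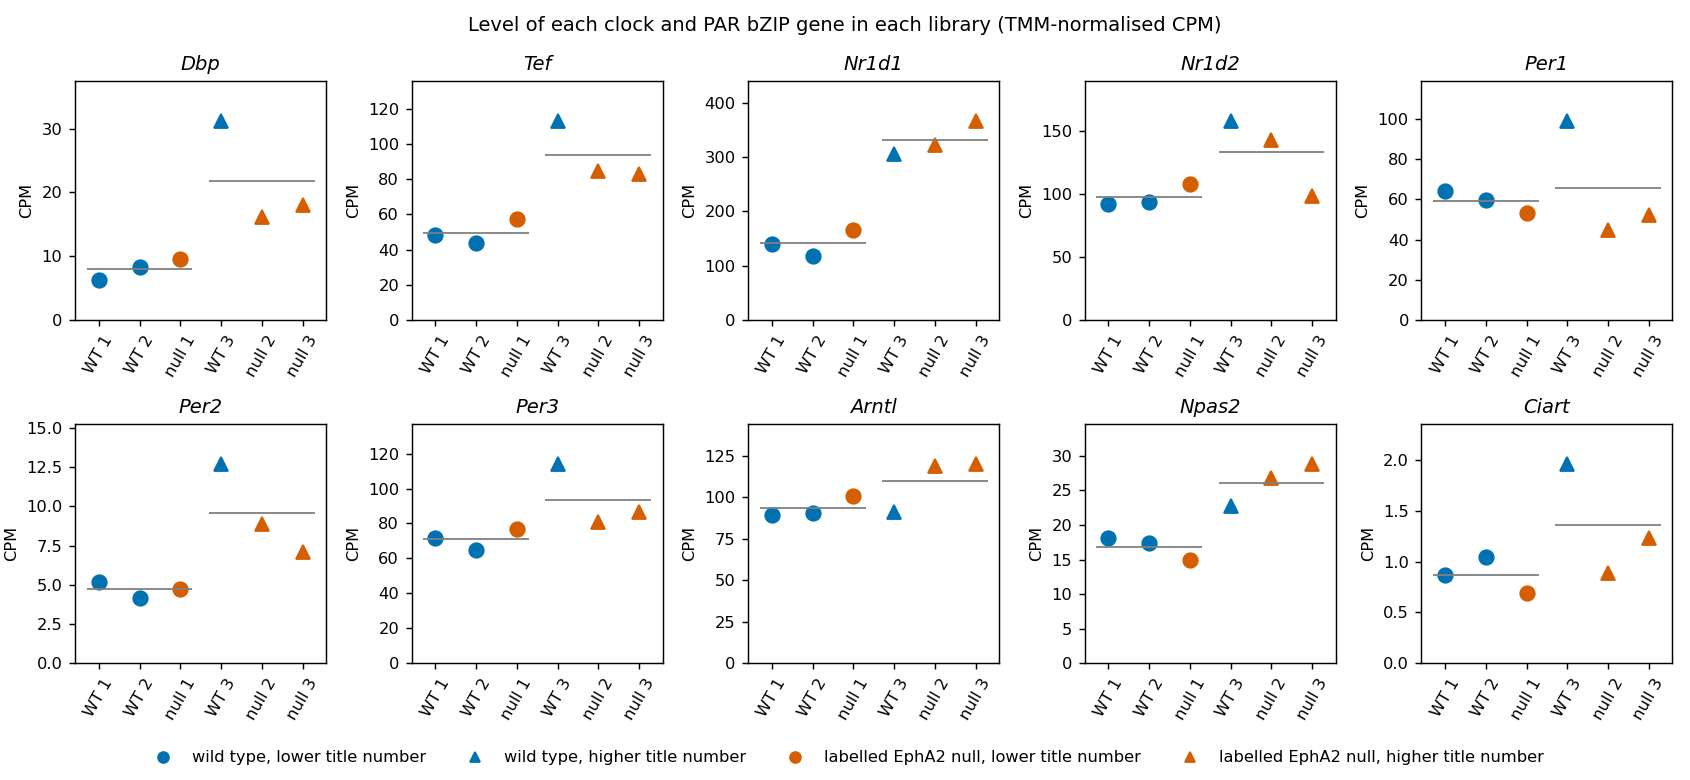
TMM-normalised CPM (y axes, from 0) of each of the 10 genes in each library (x axes), wild type in blue and labelled EphA2 null in orange, lower title numbers as circles and higher ones as triangles; grey lines are the means of 3 libraries. Dbp, Tef, Nr1d1, Per2, Per3 and Npas2 have all 3 triangles above all 3 circles, and wild type 3 is the highest library for 7 of the 10 genes.

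Of the output factors, Dbp (ENSMUSG00000059824, chromosome 7, 45705088 to 45710203, plus strand, GRCm38) showed the widest range. The library values were 6.27, 8.33 and 31.2 CPM in wild type 1, 2 and 3, against 9.54, 16.2 and 18.0 CPM in null-labelled libraries 1, 2 and 3. The 3 higher-numbered libraries stood above the 3 lower-numbered ones, and wild type 3 stood well above every other library. The mean was 21.8 ± 8.17 CPM against 8.05 ± 1.65 CPM (SD, n = 3 each). With genotype in the model the fitted difference was 1.48 ± 0.25 on the log2 scale, or 2.78-fold (SE; adjusted p = 0.00348, edgeR). Without wild type 3 it was 0.83 (adjusted p = 0.0303) and without null-labelled library 1 it was 2.10 (adjusted p = 0.0145). Dbp shares 539 exon bases, 18.0% of its exon length, with Sphk2 on the opposite strand, and the strand setting of the counting is not given in the sources used here. Sphk2, a sphingosine kinase gene, itself differed by 0.71 ± 0.16 (adjusted p = 0.00848, edgeR). Without the strand setting it is not known whether reads of the pair in that stretch were told apart.

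Tef (ENSMUSG00000022389, chromosome 15, 81802421 to 81826863, plus strand) divided the libraries in a similar way at a higher count. It stood at 48.0, 43.5 and 113 CPM in wild type 1, 2 and 3, against 57.3, 84.8 and 82.9 CPM in null-labelled libraries 1, 2 and 3. Again the ranges did not overlap and wild type 3 was the highest. Tef rose from 49.6 ± 7.02 to 93.4 ± 16.6 CPM (SD, n = 3 each) between the lower and the higher title numbers, with a fitted log2 difference of 0.92 ± 0.15 (SE; adjusted p = 0.00314, edgeR). Leaving out wild type 3 gave 0.53 (adjusted p = 0.0264).

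Of the REV-ERB receptors, Nr1d1 (ENSMUSG00000020889, chromosome 11, 98767932 to 98775333, minus strand) had the most even pattern. The library values were 141, 118 and 306 CPM in wild type 1, 2 and 3, against 165, 322 and 367 CPM in null-labelled libraries 1, 2 and 3. Here wild type 3 was the lowest of the higher-numbered libraries, not the highest. The means were 331 ± 31.7 and 141 ± 23.4 CPM (SD, n = 3 each). The fitted difference, with genotype in the model, was 1.15 ± 0.11 on the log2 scale (SE; adjusted p = 0.00174, edgeR), and leaving out any single library kept it between 1.05 and 1.23. Nr1d1 shares 263 exon bases (8.55% of its exon length) with Thra, a thyroid hormone receptor gene on the opposite strand. Thra had 8297 counts over all libraries against 29433 for Nr1d1, and differed by 0.73 ± 0.10 on the log2 scale (adjusted p = 0.00216, edgeR).

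Its paralog Nr1d2 (ENSMUSG00000021775, chromosome 14, 18204054 to 18239127, minus strand) was not called. Nr1d2 had 92.0, 93.9 and 158 CPM in wild type 1, 2 and 3, against 108, 143 and 98.1 CPM in null-labelled libraries 1, 2 and 3. Null-labelled library 3 lay among the lower-numbered libraries, so the ranges overlapped. The log2 fold change was 0.46 ± 0.17 (SE; adjusted p = 0.0563, edgeR). It was called without that library (0.60, adjusted p = 0.00403) and by DESeq2 (0.46, adjusted p = 0.0317), and it was 0.14 without wild type 3 (adjusted p = 0.637) and 0.76 without null-labelled library 1 (adjusted p = 0.0537).

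The Per genes, the core repressors, differed among themselves. Per2 (ENSMUSG00000055866, chromosome 1, 91415982 to 91459324, minus strand) had 5.21, 4.19 and 12.7 CPM in wild type 1, 2 and 3, against 4.72, 8.86 and 7.10 CPM in null-labelled libraries 1, 2 and 3. Its ranges did not overlap, and the log2 fold change was 1.10 ± 0.20 (SE; adjusted p = 0.00455, edgeR), but without wild type 3 it was 0.74 and not called (adjusted p = 0.0824). Per3 (ENSMUSG00000028957, chromosome 4, 151003652 to 151044665, minus strand) had 71.6, 64.7 and 114 CPM in wild type 1, 2 and 3, against 77.1, 80.6 and 86.4 CPM in null-labelled libraries 1, 2 and 3. Only wild type 3 stood clear of the rest, the other 5 libraries lying between 64.7 and 86.4 CPM. Per3 was called at 0.43 ± 0.14 on the log2 scale (SE; adjusted p = 0.0329, edgeR), which was lost without wild type 1 (0.41, adjusted p = 0.0825), wild type 2 (0.33, adjusted p = 0.124) or wild type 3 (0.10, adjusted p = 0.610). It was also lost with samples sharing a title number summed (0.43, adjusted p = 0.0733) and with upper quartile factors (0.30, adjusted p = 0.0876).

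Per1 (ENSMUSG00000020893, chromosome 11, 69095217 to 69109960, plus strand), which in other cells also answers to cyclic AMP and glucocorticoid signals, had title number ranges that overlapped. Per1 had 64.4, 59.5 and 99.1 CPM in wild type 1, 2 and 3, against 53.2, 44.9 and 52.5 CPM in null-labelled libraries 1, 2 and 3. All 3 wild type libraries lay above all 3 null-labelled ones, which held for 2.02% of all tested genes. Per1 was not called by genotype (adjusted p = 0.9996, edgeR). By title number its log2 fold change was 0.28 ± 0.16 (SE; adjusted p = 0.198, edgeR). That value turned to -0.14 without wild type 3 (adjusted p = 0.498), and was called without null-labelled library 1 (0.67, adjusted p = 0.0362).

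Of the activators, Arntl (ENSMUSG00000055116, chromosome 7, 113207465 to 113314126, plus strand) was the steadiest of the 10 genes, its highest library being 1.34 times its lowest. The library values were 89.3, 90.4 and 91.2 CPM in wild type 1, 2 and 3, against 101, 119 and 120 CPM in null-labelled libraries 1, 2 and 3. Wild type 3 stood with the other wild type libraries although it was the highest library for Dbp, Tef, Nr1d2, Ciart and all 3 Per genes. By title number the log2 fold change was 0.14 ± 0.09 (SE; adjusted p = 0.239, edgeR), so Arntl was not called in the contrast in which Dbp, Tef, Nr1d1 and Per2 were. Within a library, the log2 level of Dbp minus that of Arntl was -3.81, -3.42 and -1.55 in wild type 1, 2 and 3, against -3.39, -2.87 and -2.73 in null-labelled libraries 1, 2 and 3.

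Npas2 (ENSMUSG00000026077, chromosome 1, 39193731 to 39363236, plus strand), which can take the place of CLOCK, was at 18.1, 17.4 and 22.8 CPM in wild type 1, 2 and 3. It was at 14.9, 26.8 and 28.8 CPM in null-labelled libraries 1, 2 and 3. Null-labelled library 1 was the lowest and null-labelled libraries 2 and 3 were the highest. Npas2 was higher with higher title numbers by 0.63 ± 0.14 on the log2 scale (SE; adjusted p = 0.00934, edgeR). Without null-labelled library 1 the difference was 0.36 and not called (adjusted p = 0.177).

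Ciart (ENSMUSG00000038550, chromosome 3, 95878503 to 95882251, minus strand) was near the detection limit, with 131 counts in all and 15 to 33 in each library. The library values were 0.868, 1.05 and 1.96 CPM in wild type 1, 2 and 3, against 0.688, 0.886 and 1.23 CPM in null-labelled libraries 1, 2 and 3. The ranges overlapped, and wild type 3 was again the highest. The log2 fold change of 0.85 ± 0.32 (SE) did not pass (adjusted p = 0.0608, edgeR), and it passed without null-labelled library 2 (0.96, adjusted p = 0.0406).

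**Figure D2:**
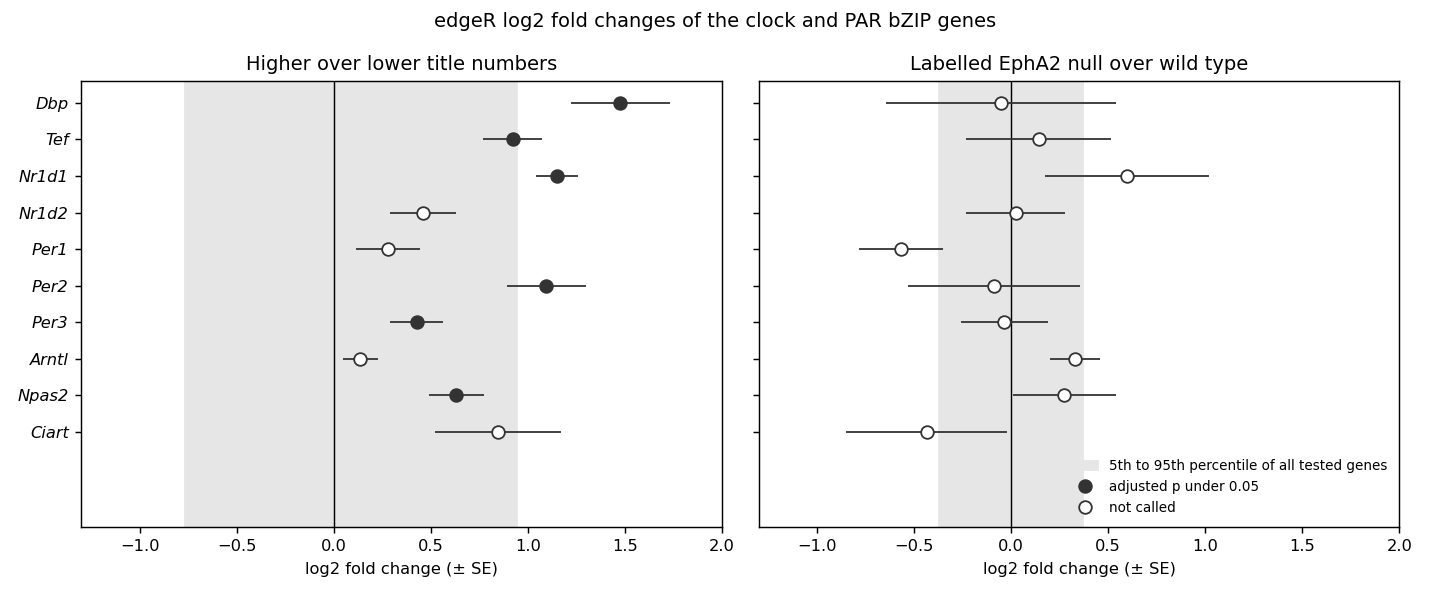
edgeR log2 fold changes with their SE (x axes) of the 10 genes (rows), between higher and lower title numbers (left, genotype as a term) and between genotypes (right, genotype alone); filled points are called, and grey bands span the 5th to 95th percentile of all 12847 tested genes. On the left all 10 points lie above 0 and 6 are filled, with Dbp at 1.48, and on the right none is filled.

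Per base of exon, the order of the 10 genes was led by the REV-ERB receptors. Divided by exon length in kilobases, the mean level over 6 libraries was 76.8 CPM per kilobase for Nr1d1 and 21.4 for Nr1d2, each clear of the gene after it in every library. Arntl (13.5), Per1 (11.1), Tef (9.09) and Per3 (8.58 CPM per kilobase) followed, with ranges that overlapped from each to the next. Dbp (4.99) and Npas2 (4.48 CPM per kilobase) overlapped too, each being above the other in 3 libraries. Per2 (1.22 CPM per kilobase) and Ciart (0.492) were the lowest, and Per2 was the higher of the pair in all 6 libraries.

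Between the genotypes the 10 genes split evenly around 0, with a median of -0.01 on the log2 scale against 0.01 over all tested genes. None was called by edgeR, DESeq2 or limma voom, which called 1, 6 and 1 of 12847 genes (0.00778%, 0.0467% and 0.00778%). At an unadjusted p under 0.05, edgeR had 2 of the 10, Per1 and Arntl, and 1.18% of all tested genes. The mean of Per1 was 74.4 ± 21.6 CPM in wild type against 50.2 ± 4.62 CPM with the null label (SD, n = 3 each), -0.57 ± 0.22 on the log2 scale (SE; adjusted p = 0.9996, edgeR). The mean of Arntl was 90.3 ± 0.967 CPM against 113 ± 10.9 CPM (SD, n = 3 each), 0.33 ± 0.13 on the log2 scale (SE; adjusted p = 0.9996, edgeR). These were the only ones of the 10 without overlap between genotypes, 1 in each direction, which held for 1.71% of all tested genes above and 2.02% below wild type.

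With title number range included in the model, the values of Per1 and Arntl kept their direction. The log2 difference was -0.62 ± 0.17 for Per1 (SE; adjusted p = 0.911, edgeR) and 0.28 ± 0.09 for Arntl (SE; adjusted p = 0.9996, edgeR). Nr1d1, at 0.60 ± 0.42 without the term, had 0.26 ± 0.11 with it (SE; adjusted p = 0.9996, edgeR). At an unadjusted p under 0.05 these 3 of the 10 passed, and 3.87% of tested genes. Leaving out wild type 3 gave -0.22 for Per1 and 0.16 for Arntl, and leaving out null-labelled library 1 gave -1.02 for Per1 (adjusted p = 0.182, edgeR). None of the 10 was called, against 0.00778% of tested genes. Per1 alone was called when genes with few counts were left in (adjusted p = 0.00515, edgeR), where 68 of 18389 genes were, and it was not called by DESeq2 or limma voom, which called 18 and 1 genes (0.14% and 0.00778%).

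Within the title number ranges the genotype difference took different values. Among the lower numbers null-labelled library 1 exceeded the mean of wild type 1 and 2 in Dbp by 0.40, in Tef by 0.32, in Nr1d1 by 0.35, in Nr1d2 by 0.22 and in Per3 by 0.18 on the log2 CPM scale. Among the higher numbers the mean of null-labelled libraries 2 and 3 differed from wild type 3 by -0.86 in Dbp, -0.43 in Tef, 0.17 in Nr1d1, -0.42 in Nr1d2 and -0.45 in Per3. The sign differed between the ranges for 6 of the 10 genes, and for 51.1% of all tested genes. Per1 (-0.22 and -1.03) and Ciart (-0.42 and -0.85) stood lower, and Nr1d1 and Arntl (0.17 and 0.39) higher, in the null-labelled libraries within both ranges. The interaction of genotype and range was called for 0 of the 10 by edgeR, and for 0% of tested genes, with 5 of the 10 and 4.71% at an unadjusted p under 0.05. DESeq2 called 0 of the 10 and 0.0545% of tested genes. Wild type 3 is the only wild type library among the higher numbers, so each of these higher-range differences rests on it. It was the highest of the 6 libraries for 7 of the 10 genes, and for 13.3% of all tested genes, a count taken after the levels had been seen.

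**Figure D3:**
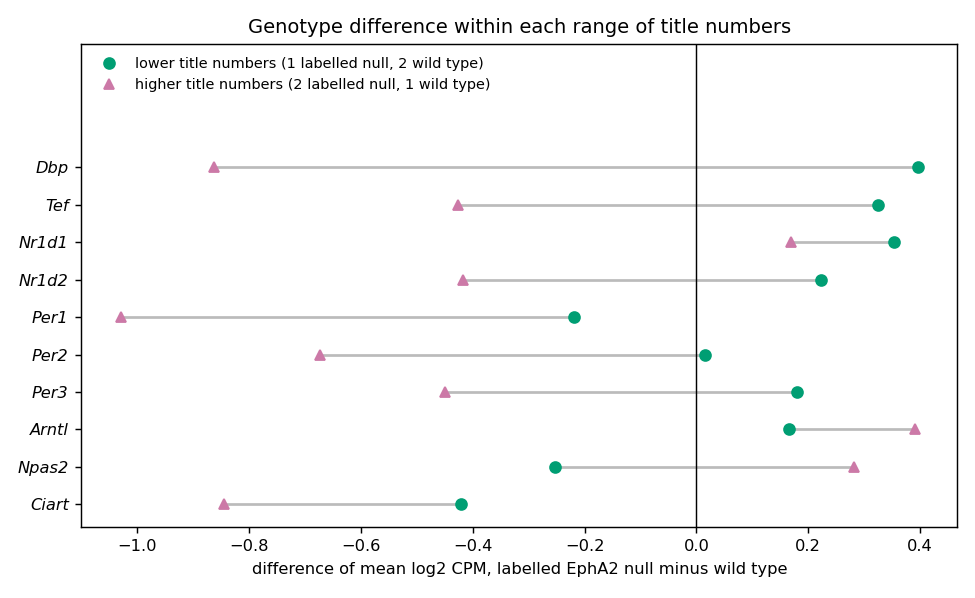
Difference of mean log2 CPM, libraries labelled EphA2 null minus wild type (x axis), for each of the 10 genes (rows) among the lower title numbers (green circles) and among the higher ones (pink triangles). Dbp runs from 0.40 to -0.86, while Per1 and Ciart are below 0 and Nr1d1 and Arntl above 0 in both.

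The other 18 listed clock genes gave a more mixed picture by title number. Of 17 that were tested, 6 were higher, 1 lower and 10 not called, and the median was 0.24 on the log2 scale. Of all tested genes 24.6% were called higher and 20.1% lower. The 6 were Cry2, a partner of the PER repressors (0.70 ± 0.12), Bhlhe40, an E-box repressor (0.78 ± 0.14), Hlf, another PAR bZIP gene (0.63 ± 0.13), the kinase genes Csnk1d (0.76 ± 0.10) and Csnk1e (0.50 ± 0.10), whose products phosphorylate PER, and the ubiquitin ligase gene Fbxw11 (0.36 ± 0.10; SE, adjusted p of 0.0174 or less in edgeR for each). Nono, whose product binds PER, was lower (-0.36 ± 0.08; adjusted p = 0.00909). Clock had 457, 504 and 441 CPM in wild type 1, 2 and 3, against 511, 484 and 399 CPM in null-labelled libraries 1, 2 and 3, with a log2 fold change of -0.17 ± 0.11 (adjusted p = 0.236). Nfil3, which competes with PAR bZIP factors at D-boxes, had -0.05 ± 0.31 (adjusted p = 0.919), and Cry1 0.71 ± 0.33 (adjusted p = 0.114, edgeR). Rorb had 0 counts in 5 of the 6 libraries. Fbxw11 was not called with upper quartile factors, nor without wild type 2 or wild type 3. Without null-labelled library 1 the calls were Cry2, Bhlhe40 and Csnk1d, all higher. That fit called 1103 of all tested genes, against 5740 in the main fit. Without wild type 3 Nono was not called and Cry1 was called higher. Between the genotypes 0 of the 17 were called, against 0.00778% of tested genes.

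Of 10 genes listed as clock outputs, 4 were higher and 1 lower with higher title numbers and 5 not called, with a median of 0.24, against 24.6% higher and 20.1% lower over all tested genes. They were Usp2, a ubiquitin protease gene (1.03 ± 0.18, adjusted p = 0.00366), Por, the electron donor of cytochrome P450 enzymes (0.95 ± 0.13, adjusted p = 0.00216), Cdkn1a, a cell cycle inhibitor (0.69 ± 0.13, adjusted p = 0.00451) and Noct, a rhythmic phosphatase gene (0.61 ± 0.19, adjusted p = 0.0304, edgeR for all). Nampt, an enzyme of NAD synthesis, was the lower one (-0.27 ± 0.09, adjusted p = 0.0365) and is named because it was the single fall. The Nampt call was lost with samples sharing a title number summed, and without wild type 2, wild type 3, null-labelled library 1 or null-labelled library 2. Noct was not called with upper quartile factors, where Alas1 was called lower, nor without wild type 2 or wild type 3. Without null-labelled library 1 the calls were Usp2 and Por, where 1103 of all tested genes were called, against 5740 in the main fit.

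**Figure D4:**
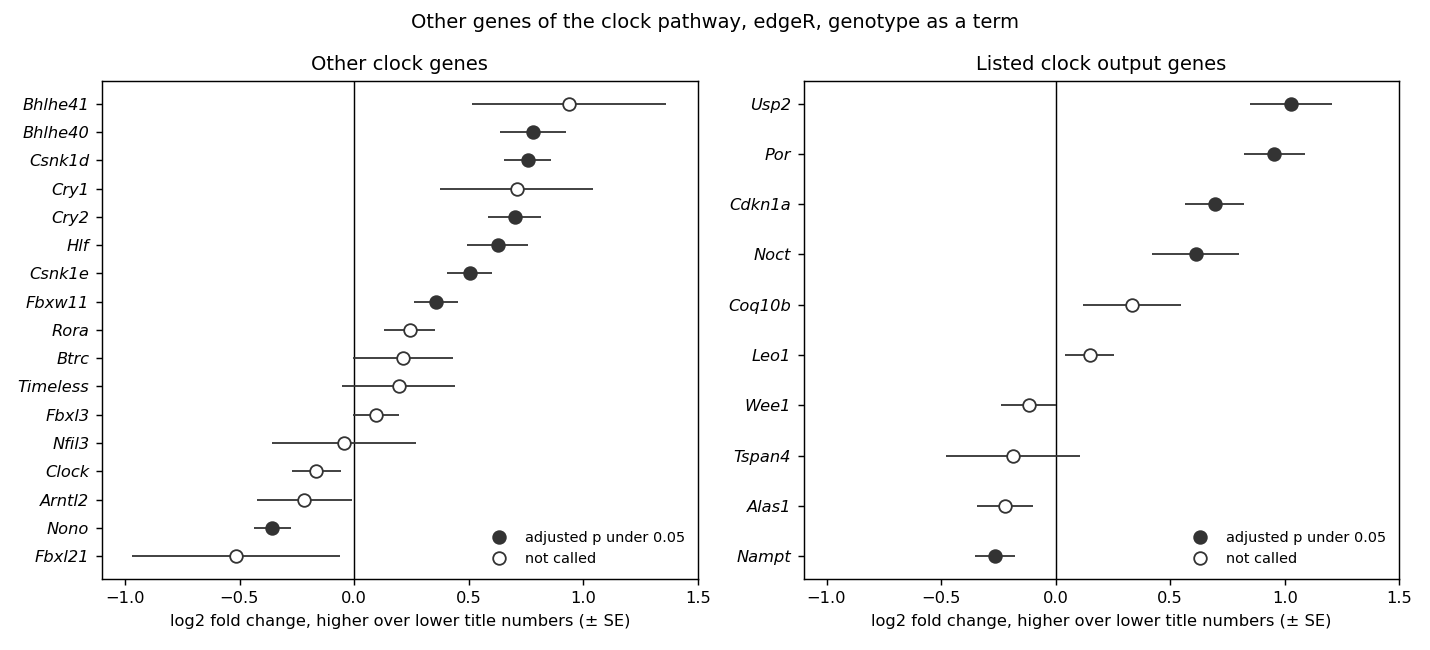
edgeR log2 fold change with its SE between higher and lower title numbers (x axes), genotype as a term, of the 17 tested other clock genes (left) and 10 listed output genes (right); filled points are called. On the left 6 filled points lie above 0 and 1, Nono, below, and on the right Usp2 is highest at 1.03.

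Genes that answer to glucocorticoids and to acute stimulation, signals that reach Per1 in other tissues, were counted in the same contrast, in which 24.6% of all tested genes were called higher and 20.1% lower. Of 8 tested glucocorticoid response genes, 4 were higher with the higher numbers in edgeR, 1 lower and 3 not called, with a median of 0.36: the chaperone gene Fkbp5 had 0.68 ± 0.14 (SE; adjusted p = 0.00584) and the phosphatase gene Dusp1 0.84 ± 0.13, whereas Tsc22d3, which encodes the glucocorticoid-induced leucine zipper protein, had -0.76 ± 0.11 (adjusted p = 0.00232). Among 11 immediate early genes 8 were higher, 0 lower and 3 not called, with a median of 0.83, led by Egr1 (1.54 ± 0.10, adjusted p = 0.000753, edgeR). Summed over the list, immediate early genes had 2868 to 3750 CPM in the lower-numbered and 4427 to 6132 CPM in the higher-numbered libraries. With upper quartile factors these counts were 4 and 1 for the glucocorticoid list and 6 and 0 for the immediate early list. Without null-labelled library 1 they were 1 and 1, and 6 and 0, and without wild type 3 they were 2 and 1, and 6 and 0. The shares of 24.6% and 20.1% belong to the main fit, which called 5740 genes in either direction. Over all tested genes 1103 were called without null-labelled library 1, and fewer than 5740 without wild type 3. Upper quartile factors called 2480 higher and 3797 lower. Their part in the clock gene differences was not tested.

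Some cell type markers were called in the title number contrast and others were not, against 24.6% higher and 20.1% lower over all tested genes. The 7 corneal epithelial markers summed to between 57763 and 65507 CPM in the lower-numbered and between 74883 and 82123 CPM in the higher-numbered libraries. Of these, 3 were called higher (Aldh3a1, Tkt and Cldn4) and 4 were not called. The 4 were Krt5 (0.30 on the log2 scale), Krt12 (0.24), Pax6 (0.015) and Krt14 (-0.29). Of 7 tested leukocyte markers 6 were lower and 0 higher, with a median of -2.33. The 8 listed summed to 46.4 to 59.5 CPM in the lower-numbered and 25.0 to 31.5 CPM in the higher-numbered libraries. Most of the latter was Cd68, at 24.9, 26.4 and 21.7 CPM, which was not called (-0.09 ± 0.12, adjusted p = 0.560, edgeR). Ptprc, Csf1r, C1qa and C1qb were near the detection limit, at no more than 1.93 CPM in any library. The 5 conjunctival markers summed to 4887 to 6289 and 3287 to 5996 CPM, with 2 called lower and 3 not called. Muc5ac, a mucin of conjunctival goblet cells, had 38.5, 5.24 and 58.8 CPM in the lower-numbered and 0.675, 2.21 and 1.68 CPM in the higher-numbered libraries. Keratocyte markers summed to no more than 2.27 CPM in any library, with Kera and Lum at 0 in all 6 and Vim, the 1 tested, called lower. Vessel, nerve, melanocyte and muscle markers summed to no more than 1.03, 3.61, 5.66 and 0.81 CPM in any library, with Kdr and Tyr at 0. The 1 tested nerve and 1 tested melanocyte marker were not called, and no vessel or muscle marker was tested. Corneal endothelial markers summed to 14.1 to 24.8 CPM in the lower-numbered and 19.9 to 41.1 CPM in the higher-numbered libraries. Of the 2 tested, Slc4a11 was called higher (1.04 ± 0.22 on the log2 scale, SE). Col8a1 lay below 0 and was not called (-0.87 ± 0.74, adjusted p = 0.363, edgeR). Without null-labelled library 1, 0 epithelial, 1 leukocyte and 0 conjunctival markers were called, and with upper quartile factors 2, 6 and 4. Over all tested genes the first of these fits called 1103 in either direction, against 5740 in the main fit. The second called 2480 higher and 3797 lower. By genotype none of these markers was called. The part of these cells in the clock gene differences was not tested.

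For likeness of pattern, the Pearson r of log2 CPM over the 6 libraries was taken between Dbp or Arntl and 11987 other genes that averaged 1 CPM or more, as a description only, since the 6 points fall into 2 groups of title numbers. The 5 genes nearest to Dbp were Slco2a1 (r = 0.994), a prostaglandin transporter gene, Ncs1 (0.991), Rasa4 (0.990), Tesc (0.986) and Bcl2l11 (0.985). Slco2a1 had 2.22, 2.56 and 10.5 CPM in wild type 1, 2 and 3, against 2.94, 4.82 and 5.71 CPM in null-labelled libraries 1, 2 and 3, with wild type 3 again the highest. Nearest to Arntl were Mocs1 (r = 0.991), B3galt5 (0.977), Zc3h12c (0.976), Mapk13 (0.970) and Rbm10 (0.969). B3galt5 had 6.17, 6.06 and 7.22 CPM in wild type and 7.93, 18.0 and 15.3 CPM in the null-labelled libraries.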

How the data were processed

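The authors deposited raw counts per gene, whole numbers by Ensembl gene number, in 1 table of 6 libraries, matched to samples by title. The aligner, counting program, strand setting, build and annotation were not given in the sources used here. Total counts ran from 15308013 to 27586942 per library. GENCODE M21 (GRCm38) held 24991 of 25006 identifiers and gave names, positions and exon lengths. No 2 libraries agreed within sampling noise (smallest chi-square per df 10.6).

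Counts were filtered with filterByExpr and scaled with TMM factors. They were tested with edgeR 4.0.16 (glmQLFit, glmQLFTest; R 4.3.3) in 4 comparisons: genotype alone, genotype with title number range, title number range with genotype, and their interaction. The SE is the log2 fold change divided by the square root of F. DESeq2 1.42.0, limma voom (limma 3.58.1), other scalings, filters and thresholds, single libraries left out, and samples sharing a title number summed were alternatives. Log2 CPM used a prior count of 2. Each model except the interaction was also run on simulated counts. These were drawn independently for each library, so they do not bear on dependence between libraries that share a title number.

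The 10 genes, the other gene lists and the title number contrast were chosen with earlier results of these data known. All 10 are named. In the list of other clock genes, 1 gene is not reported here and was left out of its counts and median. The rest of that list could all be named, and from the remaining lists up to 4 called genes with the smallest p. Some markers that were not called, such as Col8a1, Cd68 and Krt14, are named to show the spread within their lists. The 5 genes nearest to Dbp and to Arntl were named by Pearson r.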

Additional observations from a re-analysis of the deposited data

Results flagged for a closer look

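For 5 of the 10 genes the null-labelled libraries lay on opposite sides of wild type in the 2 ranges of title numbers. Each library labelled EphA2 null was above each wild type library in 1 range and below in the other. The share of all tested genes that did so was not counted. By a looser measure, the mean difference changed sign for 6 of the 10 and for 51.1% of all tested genes. The lower range holds only null-labelled library 1 of its genotype, and the higher range only wild type 3. The interaction of genotype and title number range tests whether the genotype difference differs between the ranges. It was called for 0 of 12847 genes by edgeR (0%, with 605 at an unadjusted p under 0.05) and for 7 by DESeq2 (0.0545%), none of them among the 10. It was -1.25 ± 0.30 on the log2 scale for Dbp, -0.75 ± 0.19 for Tef, -0.62 ± 0.29 for Nr1d2, -0.63 ± 0.19 for Per3 and 0.54 ± 0.23 for Npas2 (SE), each with an adjusted p of 0.9991 in edgeR. Leaving out null-labelled library 2, Dbp (-1.18, adjusted p = 0.0416) and Nr1d2 (-0.91, adjusted p = 0.0458) passed in edgeR among 105 genes. Leaving out null-labelled library 3, Dbp (-1.34, adjusted p = 0.00740) and Per1 (-0.92, adjusted p = 0.0201) passed among 192. In both of these fits only the lower-numbered wild type libraries are replicated, and the others are assumed to vary like them.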

How the results depend on the processing

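The title number contrast kept its sign for all 10 genes under every alternative, except Per1 without wild type 3. Dbp, Tef and Nr1d1 were called under every alternative run. The member count was 6, and 4 to 7 with single libraries left out, 5 with upper quartile factors or with samples sharing a title number summed, and 7 with DESeq2. Upper quartile factors moved the median of all genes by -0.12, turned the share of calls that were higher from 54.9% to 39.5%, and lost Per3 (0.30, adjusted p = 0.0876, edgeR), which summing lost too (0.43, adjusted p = 0.0733). Over all genes the count was 5740, and 5473 by DESeq2. It ran from 1103 to 5803 with single libraries left out. With upper quartile factors 2480 genes were called higher and 3797 lower. Per1 ran from -0.14 to 0.67.

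By genotype alone, 1 gene was called, 0 with summed samples, and 6 by DESeq2. With the title number term it was 1, and 68 with no filter on low counts, 4 at an adjusted p under 0.1, 18 by DESeq2, and 1 to 7 with single libraries left out. The interaction had 0 calls, 7 by DESeq2, and 1 to 192 with single libraries left out; it could not be fitted without wild type 3 or without null-labelled library 1. Genotype values near 0 changed sign. With voom these were Dbp (0.31), Per2 (0.060) and Per3 (0.015), and with summed samples Tef (-0.18) and Nr1d2 (-0.16). Within the lower title numbers they were Dbp (0.40), Per2 (0.015), Per3 (0.18) and Npas2 (-0.25), and within the higher ones Tef (-0.43) and Nr1d2 (-0.42). With single libraries left out, the genotype value ran from -0.43 to 0.99 for Dbp, -0.091 to 0.70 for Tef, -0.15 to 0.31 for Nr1d2, -0.36 to 0.53 for Per2 and -0.18 to 0.24 for Per3. Without a change of sign it ran from -0.70 to -0.32 for Per1, 0.28 to 0.41 for Arntl, 0.35 to 1.12 for Nr1d1 and -0.70 to -0.034 for Ciart. With the title number term it ran from -0.86 to 0.39 for Dbp, -0.43 to 0.32 for Tef, -0.39 to 0.22 for Nr1d2, -0.67 to 0.0010 for Per2, -0.45 to 0.18 for Per3 and -0.26 to 0.28 for Npas2, and with no change of sign from -1.02 to -0.22 for Per1, 0.16 to 0.39 for Arntl, 0.17 to 0.35 for Nr1d1 and -0.87 to -0.47 for Ciart. The causes were not tested. No paired analysis was run, because the labels name no pairs and the titles share a number only within a genotype. The titles also end in a letter, some shared between genotypes, whose meaning the labels do not state. Ciart has 131 counts in all.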
